A study of Rattus norvegicus with 3 samples.

Results

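The 43 genes described here code for the proteins that decide whether a cell lives or dies by apoptosis, pyroptosis or necroptosis: the BCL2 family, the caspases, their inhibitors, and the death receptors with their adaptors. They were chosen by name, with earlier results of these data known, and 40 of them have a row among the 12758 gene symbols of the deposited table. MCL1, BBC3 and HRK have none. In the terms used below, 32 members promote death (30 listed) and 11 promote survival (10 listed).

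The RNA came from the cell-free supernatant left after pieces of rat spinal cord were digested with a cold-active protease and the cells were spun down. Both groups were female Sprague Dawley rats of 3 months with a laminectomy at thoracic level 9. The No-SCI group had the laminectomy alone, the SCI group also had a contusion, and the cord just rostral to the injury was taken 24 h later. By their labels, 2 libraries belong to No-SCI and 1 to SCI, although 2 animals per condition are given in the methods. The authors' table holds 1 FPKM value per group for each gene (sequenced fragments scaled by transcript length and by the size of the library) and no value for a single animal. The lowest value listed in either group is 1 FPKM, so a gene without a row may still have RNA. The methods state that the reads of each library were sampled down to the number in the smallest library. The number of reads behind each value is not in the table. No error, n or replicate test can therefore be given, and whether a difference exceeds the spread between animals cannot be said. All FPKM values are the authors' group values. Fold and log2 ratio are SCI over No-SCI unless stated, and a gene is called higher or lower when its values differ at least 2-fold.

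In the mitochondrial pathway of apoptosis, the guardian proteins of the BCL2 family (BCL2, BCL2L1, BCL2L2, MCL1, BCL2A1) hold back the pore-forming effectors BAX and BAK1, and small BH3-only proteins release that block. Open mitochondria let out cytochrome c, which assembles APAF1 and caspase-9 into the apoptosome, and DIABLO and HTRA2, which displace XIAP from caspases. Death receptors such as FAS and TNFRSF1A instead activate caspase-8 through FADD, a step that CFLAR blocks. In the injured spinal cord these routes are known for the delayed loss of neurons and oligodendrocytes.

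After SCI the pro-death genes stood higher and the pro-survival genes lower, by modest amounts. Of the 30 listed pro-death genes 22 (73.3%) had a larger value in SCI, and of the 10 listed pro-survival genes 8 (80%) had a smaller one. Among all 12771 entries listed, 43.7% had a log2 ratio above 0 and 56.3% below 0. The median log2 ratio was 0.29 for the pro-death genes, −0.62 for the pro-survival genes and −0.12 for all entries, so the medians of the pro-death and pro-survival genes lay 0.91 apart. None of the pro-survival genes exceeded the pro-death median, and 2 pro-death genes, RIPK1 and BIK, lay below the pro-survival median. These genes are not replicates, their roles were assigned with earlier results of these data known, and the medians describe the list only. In the supernatant of a tissue of mixed cells, differences in cell number, in RNA per cell and in the RNA that reached the supernatant cannot be told apart.

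Few members passed the 2-fold rule. PMAIP1 and CASP8 were called higher, 2 of 40 members (5.0%) beside 7.96% of all entries, and BCL2 and BCL2L2 were called lower, 2 of 40 (5.0%) beside 12.1% of all entries. At 1.5-fold, 9 members were higher (22.5%, beside 16.9% of all entries) and 7 were lower (17.5%, beside 26.3%). All 9 that were higher belong to the pro-death side, namely PMAIP1, CASP8, CASP12, TRADD, BCL2L11, TNFRSF1A, BID, BAD and ENDOG. That side holds 30 of the 40 listed members, and the 9 are 30% of it. Of the 7 that were lower, BCL2, BCL2L2, XIAP, MDM2 and BCL2L1 are pro-survival genes (50% of the 10 listed). RIPK1 and BIK are pro-death genes (6.67% of the 30 listed). The shares called at 2-fold were thus no larger than the background in either direction, and the summed FPKM of the 40 members was nearly equal, 2555 in No-SCI and 2557 after SCI.

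**Figure D1:**
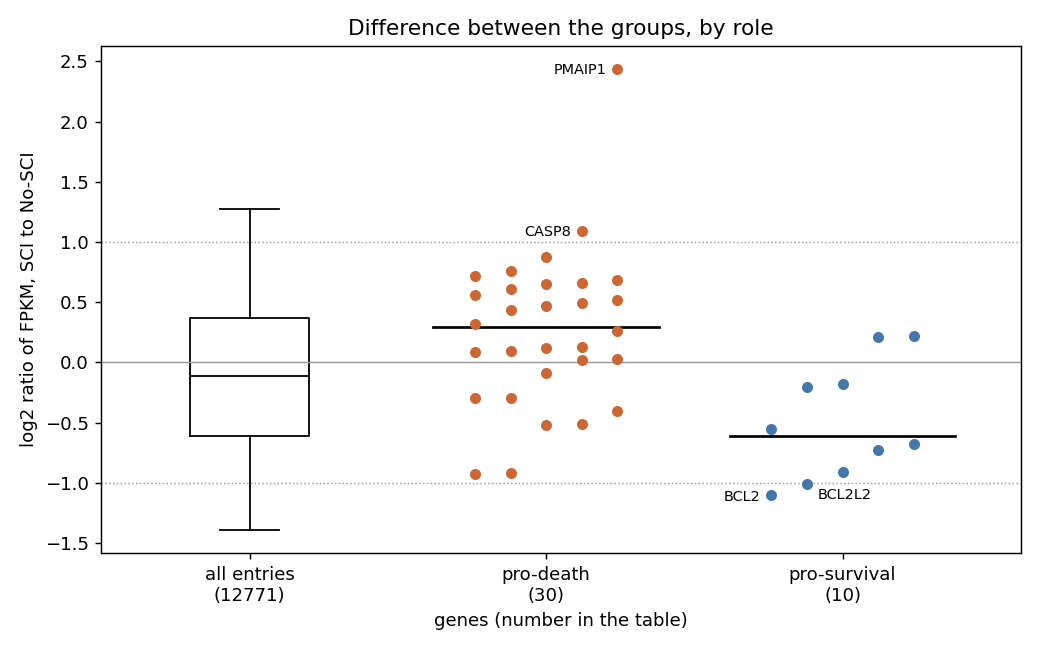
Log2 ratio of FPKM (SCI over No-SCI, vertical axis) of each listed pro-death gene and each listed pro-survival gene, 1 point per gene with the median as a bar, beside all 12771 entries as a box from the 25th to the 75th percentile with whiskers to the 5th and 95th. Dotted lines mark 2-fold; PMAIP1 (2.44) lies above the upper whisker (1.28), and the highest pro-survival point lies at 0.22.

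The upstream sequences of the 3 called genes that have an entry in the RefSeq promoter table of the GRCr8 assembly are shown first, since PMAIP1 had the largest ratio of all members and BCL2 and BCL2L2 were the guardians called lower. Each is the 250 bases before the annotated start, on the strand of the gene. Capitals mark matches to 6 motifs searched on both strands: the GC box GGGCGG, the TATA box TATAAA, the CREB and ATF core TGACG, the AP-1 sites TGACTCA and TGAGTCA, the NF-kB site and the p53 decamer. The windows lie at chr18:62255720-62255969 on the plus strand for PMAIP1, chr13:23366901-23367150 on the minus strand for BCL2 and chr15:32326511-32326760 on the plus strand for BCL2L2.
PMAIP1: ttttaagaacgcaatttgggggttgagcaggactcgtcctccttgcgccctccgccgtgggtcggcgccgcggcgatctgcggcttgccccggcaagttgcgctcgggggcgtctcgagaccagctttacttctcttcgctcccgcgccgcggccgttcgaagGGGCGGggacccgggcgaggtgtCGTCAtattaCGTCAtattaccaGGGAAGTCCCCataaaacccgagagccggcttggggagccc
BCL2: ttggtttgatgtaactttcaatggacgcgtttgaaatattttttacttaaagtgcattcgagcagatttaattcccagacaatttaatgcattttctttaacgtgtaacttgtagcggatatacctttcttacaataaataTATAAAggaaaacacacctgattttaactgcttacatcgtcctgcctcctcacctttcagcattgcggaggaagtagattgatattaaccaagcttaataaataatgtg
BCL2L2: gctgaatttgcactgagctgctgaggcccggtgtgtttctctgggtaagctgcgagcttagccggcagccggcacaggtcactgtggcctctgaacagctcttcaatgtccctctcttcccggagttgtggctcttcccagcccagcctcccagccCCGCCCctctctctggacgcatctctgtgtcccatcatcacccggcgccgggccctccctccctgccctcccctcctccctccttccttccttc

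The PMAIP1 window holds 1 GC box, 2 copies of the CREB and ATF core read on the opposite strand and a pair of overlapping NF-kB matches between 41 and 31 bases before the start. The BCL2 window holds 1 TATA box, 109 to 104 bases before the start, and its GC content was 33.6%, against 64.8% for PMAIP1, 64.0% for BCL2L2 and a median of 51.2% over all windows. The BCL2L2 window holds 1 GC box on the opposite strand. Of all 33469 windows given, 30.5% hold the GC box, 18.2% the CREB and ATF core, 12.9% the TATA box and 4.24% the NF-kB site. Over the 35 windows of the 32 members that have one, the GC box was found in 21 (60.0%, beside 38.9% of the 21842 windows of protein-coding genes) and the CREB and ATF core in 10 (28.6%, beside 20.4%). The TATA box was found in 2 member windows (5.71%, beside 12.1%), those of BCL2 and BIRC2. The NF-kB site was found in 4 member windows, those of PMAIP1, MCL1, FAS and BIRC5. The AP-1 sites were found in those of BIRC2, DIABLO and RIPK3, and the p53 decamer in that of CFLAR. These are 11.4%, 8.57% and 2.86% of member windows, beside 4.68%, 3.64% and 6.26% of the windows of protein-coding genes. A match is a run of letters and not a shown binding site. BAX, BBC3, BIK, BIRC3, BOK, CASP4, CASP8, GSDMD, HTRA2, TRADD and XIAP have no entry in the promoter table.

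The guardians of the BCL2 family had lower values after SCI in 3 of the 4 listed. BCL2L1, the gene of BCL-xL and the chief guardian of adult neurons, was the most abundant member in No-SCI with 649 FPKM. That was percentile 97.9 of all entries, and SCI had 405 FPKM (log2 ratio −0.68). BCL2L2, the gene of BCL-w, had 124 FPKM in No-SCI and 61.4 FPKM in SCI (log2 ratio −1.01), and BCL2 itself 11.2 and 5.20 FPKM (−1.10). BCL2 was 2.15-fold and BCL2L2 2.02-fold lower, which places them at percentiles 9.85 and 11.7 of the log2 ratios of all entries. BCL2A1, a guardian of white blood cells, had 39.5 FPKM in No-SCI and 46.0 FPKM in SCI. BCL2L1 made up 78.8% of the summed FPKM of the 4 genes in No-SCI and 78.3% in SCI, and that sum went from 824 to 518 FPKM. The level of BCL2L1 was 58.1 times that of BCL2 in No-SCI and 77.9 times after SCI.

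Among the effectors, BAX had 16.5 FPKM in No-SCI and 24.3 FPKM in SCI, and BAK1, which opens the same pore, 20.9 and 17.0 FPKM. BOK, their relative that acts without the guardians' control, was the most abundant of the 3 with 119 and 165 FPKM. Its level was 7.24 times that of BAX in No-SCI and 6.78 times in SCI. None of the effectors reached 1.5-fold, and their log2 ratios were 0.56 for BAX, 0.47 for BOK and −0.30 for BAK1.

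The BH3-only genes held the largest difference of the whole set. PMAIP1, the gene of NOXA, which disarms MCL1, stood at 5.90 FPKM in No-SCI and 31.9 FPKM in SCI, 5.42-fold higher, a log2 ratio of 2.44. Of the 12771 entries 122 had a larger ratio. BAD, whose protein binds BCL-xL and BCL2 when survival kinases fall silent, was the most abundant of the 6 listed BH3-only genes, with 457 FPKM in No-SCI and 718 FPKM in SCI (log2 ratio 0.65). BID, which caspase-8 cuts to link death receptors to mitochondria, had 31.2 and 49.3 FPKM (0.66), and BCL2L11, the gene of BIM, 7.51 and 12.3 FPKM (0.72). BMF, tied to the cytoskeleton, had 6.19 and 5.82 FPKM, and BIK, tied to the endoplasmic reticulum, 3.38 and 1.78 FPKM. The 4 BH3-only genes with larger values in SCI thus include the most abundant, while both with smaller values had under 7 FPKM in each group. PMAIP1 also had under 7 FPKM in No-SCI, so its fold rests on a small value there. BAD made up 89.4% of the summed level in No-SCI and 87.7% in SCI, and without it the sum of the other 5 went from 54.2 to 101 FPKM. BCL2L13, an outer-membrane relative that also serves mitophagy, had 29.3 and 23.8 FPKM.

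**Figure D2:**
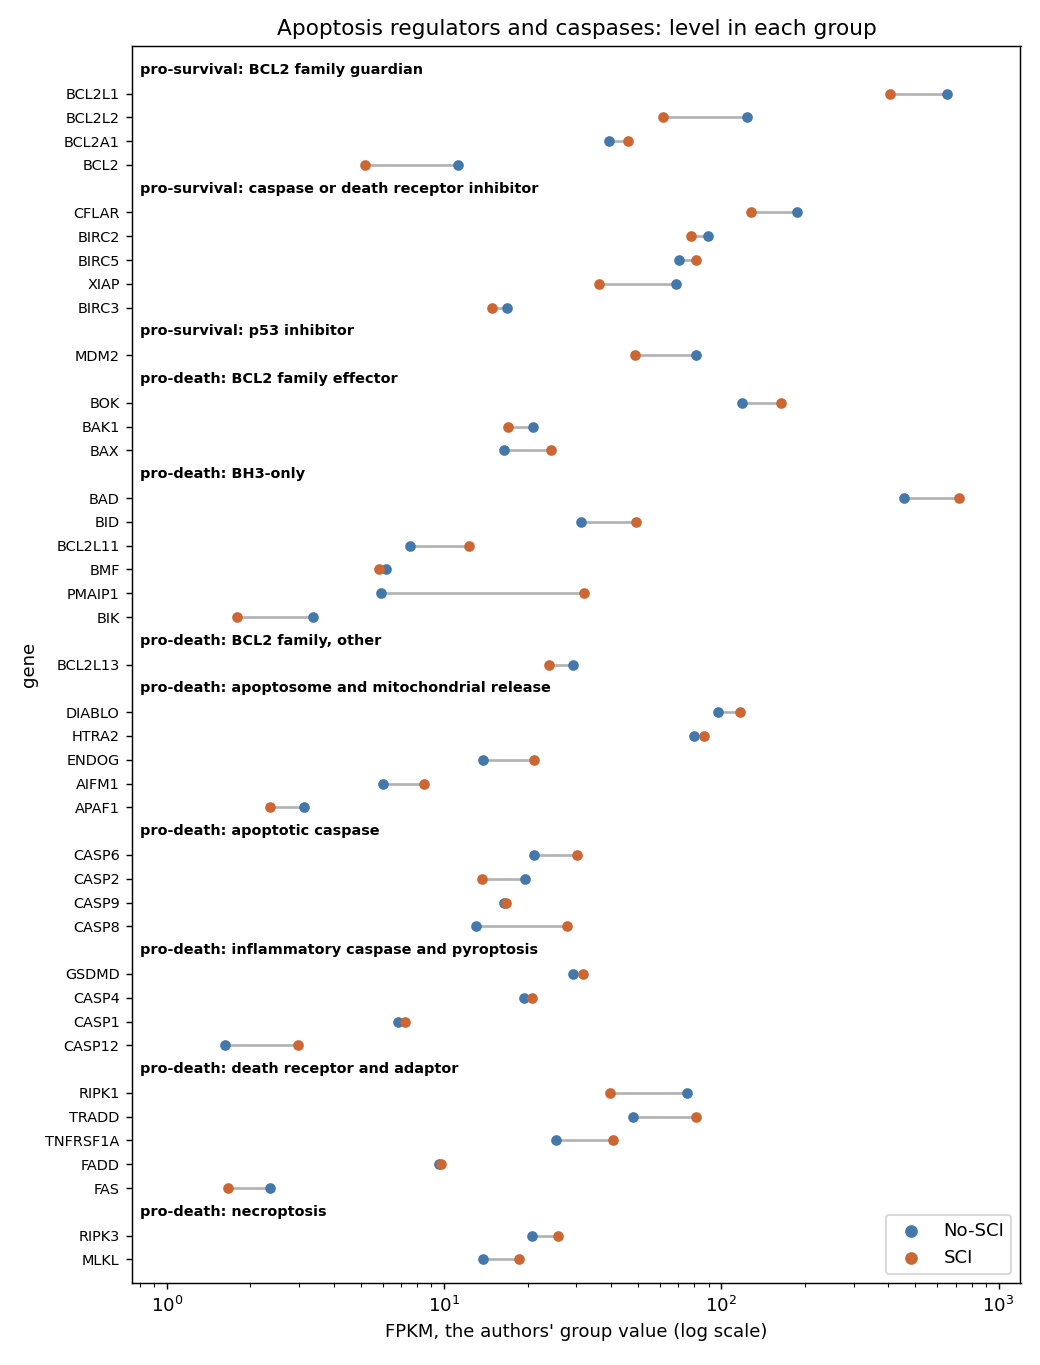
FPKM of the 40 listed members in No-SCI (blue) and SCI (orange) on a log axis, the authors' group values with no error available, arranged by role. BCL2L1 (649 to 405 FPKM) and BAD (457 to 718 FPKM) are the most abundant, and PMAIP1 (5.90 to 31.9 FPKM) has the longest line.

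Because a ratio between genes of 1 group does not depend on how the groups were scaled, levels of related members were set side by side. The summed BH3-only genes were at 0.62 of the summed guardians in No-SCI and at 1.58 after SCI, sums that BAD and BCL2L1 dominate. Without these 2 genes the ratio was 0.31 and 0.90, below 1 in both groups. BAX and BAK1 together were at 0.0453 of the guardians in No-SCI and at 0.0797 in SCI. BAD was at 0.704 of BCL2L1 in No-SCI and at 1.77 in SCI. The order of the most abundant BH3-only gene and the most abundant guardian was thus reversed between the groups. That reversal follows from their log2 ratios given above (0.65 and −0.68) and is no separate result. Levels of different genes also depend on the transcript length used for each. BAX stood at 1.47 times the level of BCL2 in No-SCI and at 4.67 times in SCI. The same ratio to BCL2L1 was 0.0254 in No-SCI and 0.0600 in SCI. MCL1, the main partner of NOXA, has no row, so the sum of guardians lacks it and PMAIP1 could not be set beside it. These pairs were picked with the values known and have no test.

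Among the released mitochondrial proteins, APAF1, the scaffold of the apoptosome, was low in both groups with 3.12 and 2.36 FPKM. DIABLO had 97.2 FPKM in No-SCI and 117 FPKM in SCI, and HTRA2, the serine protease released with it, 79.5 and 86.8 FPKM. ENDOG, a mitochondrial nuclease, had 13.8 and 21.1 FPKM, and AIFM1, a flavoprotein that drives caspase-independent death when released, 6.02 and 8.48 FPKM. All but APAF1 had larger values in SCI, with log2 ratios from 0.13 for HTRA2 to 0.61 for ENDOG.

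Of the apoptotic caspases, CASP8, which starts the death receptor route, was the one called higher. CASP8 had 13.0 FPKM in No-SCI and 27.7 FPKM in SCI, 2.13-fold, a log2 ratio of 1.09 that 876 entries exceeded. CASP9, the initiator on the apoptosome, had 16.4 and 16.7 FPKM, a log2 ratio of 0.02. CASP6, an executioner known for its role in axon degeneration, had 21.1 and 30.1 FPKM (0.52), while CASP2, the initiator of the PIDDosome, had 19.6 and 13.7 FPKM (−0.52). The 4 genes lay close together in No-SCI, from 13.0 to 21.1 FPKM, and between 13.7 and 30.1 FPKM in SCI.

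Of the inflammatory caspases, CASP1 and CASP4 had nearly equal values in the 2 groups. CASP1, which matures interleukin-1, had 6.83 FPKM in No-SCI and 7.24 FPKM in SCI, and CASP4, the sensor of cytosolic lipopolysaccharide, 19.4 and 20.7 FPKM. GSDMD, whose cut fragment forms the pore of pyroptosis, had 29.2 and 31.6 FPKM. The log2 ratios of these 3 lay between 0.09 and 0.12. CASP12, an endoplasmic reticulum caspase of rodents, had 1.62 and 2.96 FPKM, a log2 ratio of 0.87, with both values close to 1 FPKM, the lowest value in the table.

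On the death receptor route, TNFRSF1A, the main TNF receptor, had 25.3 FPKM in No-SCI and 40.6 FPKM in SCI (log2 ratio 0.68), and its adaptor TRADD 47.9 and 81.0 FPKM (0.76). RIPK1, the kinase that TRADD recruits, went the other way, with 75.0 and 39.5 FPKM (−0.92). FADD, the adaptor that carries caspase-8, had 9.58 and 9.77 FPKM, and FAS 2.36 and 1.66 FPKM. The necroptosis genes RIPK3, the kinase downstream of RIPK1, and MLKL, the membrane executioner that it phosphorylates, had 20.8 and 13.8 FPKM in No-SCI and 25.8 and 18.6 FPKM in SCI. The level of RIPK3 over RIPK1 was 0.277 in No-SCI and 0.654 in SCI. CFLAR, the decoy that keeps caspase-8 silent, had 187 FPKM in No-SCI, the second highest among the survival genes after BCL2L1, and 128 FPKM in SCI (log2 ratio −0.55). CFLAR was at 14.4 times the level of CASP8 in No-SCI and at 4.60 times after SCI.

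The inhibitor of apoptosis genes were mixed. XIAP, the direct inhibitor of caspases, had 68.4 FPKM in No-SCI and 36.3 FPKM in SCI, a log2 ratio of −0.91. BIRC2 and BIRC3, the ubiquitin ligases cIAP1 and cIAP2 of the TNF receptor complex, had 89.5 and 16.9 FPKM in No-SCI and 77.8 and 14.9 FPKM in SCI, log2 ratios of −0.20 and −0.18. BIRC5, the gene of survivin, which also serves chromosome segregation in dividing cells, had 70.2 and 81.2 FPKM. The level of DIABLO was 1.42 times that of XIAP in No-SCI and 3.22 times in SCI, and that of HTRA2 1.16 and 2.39 times. MDM2, the ligase that degrades p53, had 80.8 FPKM in No-SCI and 48.8 FPKM in SCI (log2 ratio −0.73).

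**Figure D3:**
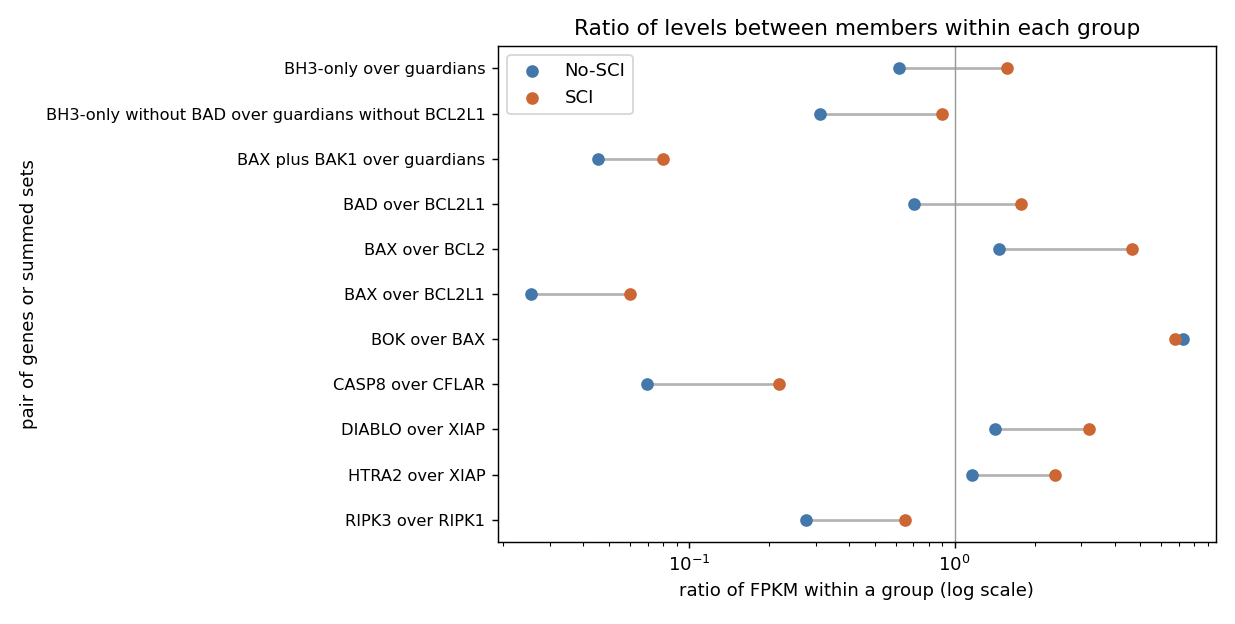
Ratio of FPKM between 2 members, or between summed sets, within No-SCI (blue) and within SCI (orange), on a log axis with a line at 1. Pairs were chosen with the values known, and all but BOK over BAX are drawn with the gene whose log2 ratio was larger on top, so that those lie further right in SCI; BH3-only genes over guardians and BAD over BCL2L1 cross 1.

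The members nearest to the 2-fold rule show how much rests on it. Just inside it were BCL2L2 (log2 ratio −1.01) and CASP8 (1.09), and just outside RIPK1 (−0.92), BIK (−0.92), XIAP (−0.91) and CASP12 (0.87). With the median of all entries centred at 0, which moves each log2 ratio up by 0.12, neither BCL2 nor BCL2L2 was called, and PMAIP1 and CASP8 were. The same centring evened out the background, with 9.55% of all entries called higher and 9.59% lower. The sign of BMF turned under this centring and under upper quartile scaling, and it was the only member whose sign turned under any alternative. APAF1, BIK, CASP12 and FAS had a mean under 5 FPKM. The values of 26 of the 40 members, among them BCL2L1, BCL2, CASP8 and CFLAR, carry 7 significant digits, as do those of 58.6% of entries. Cuffdiff usually writes 6, so such a value may combine several entries of a symbol, which was not tested.

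Other genes of these pathways, in 6 lists of 127 genes of which 113 are listed, had a median log2 ratio of −0.08. Of these, 12 (10.6%) were called higher and 7 (6.19%) lower, beside 7.96% and 12.1% of all entries. The lists were chosen with earlier results of these data known. In a p53 response list of 16 listed genes (median −0.07) the 2 called (12.5%) were both higher, PHLDA3 with 7.87 and 27.1 FPKM and CDKN1A, the cell cycle inhibitor p21, with 25.1 and 56.9 FPKM. In the TNF receptor and NF-kB list, 3 of 25 listed genes (12%) were called higher and none lower (median −0.17). These were the linear ubiquitin protease OTULIN (27.8 and 93.4 FPKM), the receptor adaptor TRAF1 (2.33 and 7.36 FPKM) and NFKBIA, the inhibitor that NF-kB itself induces (24.2 and 53.5 FPKM). In a list of BCL2 partners and mitochondrial genes, 1 of 23 (4.35%) was called in each direction (median −0.16). The BCL2-binding co-chaperone BAG1 was 5.04-fold higher with 44.6 and 224 FPKM. MOAP1, a BAX activator, was lower with 9.20 and 2.29 FPKM, against the direction of most pro-death members. Genes of these 6 lists were not sorted into pro-death and pro-survival, so the lists do not extend the comparison of the members.

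Caspase substrates and other apoptosis genes had 5 of 23 (21.7%) called higher and 1 (4.35%) lower (median 0.22), beside the 7.96% and 12.1% of all entries. The largest were PAWR, a pro-apoptotic regulator (2.80 and 12.9 FPKM), DAPK3, a death-associated kinase (15.8 and 65.7 FPKM), and LMNA, the nuclear lamin that caspase-6 cuts (45.8 and 124 FPKM), while STK4 was lower (17.3 and 8.63 FPKM). Of 10 listed inflammasome genes 1 (10%) was called higher, PANX1 (2.55 and 7.34 FPKM), and 3 (30.0%) lower, NEK7 (83.1 and 31.8 FPKM), AIM2 (7.97 and 3.35 FPKM) and IL1A (2.83 and 1.25 FPKM), with a median of 0.30. In an axon degeneration list, all 16 genes were listed, none was called higher and 2 (12.5%) were called lower, MAPK10, the neuronal JNK3 (44.0 and 16.3 FPKM), and its activator MAP2K7 (42.5 and 20.5 FPKM), with a median of −0.20.

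**Figure D4:**
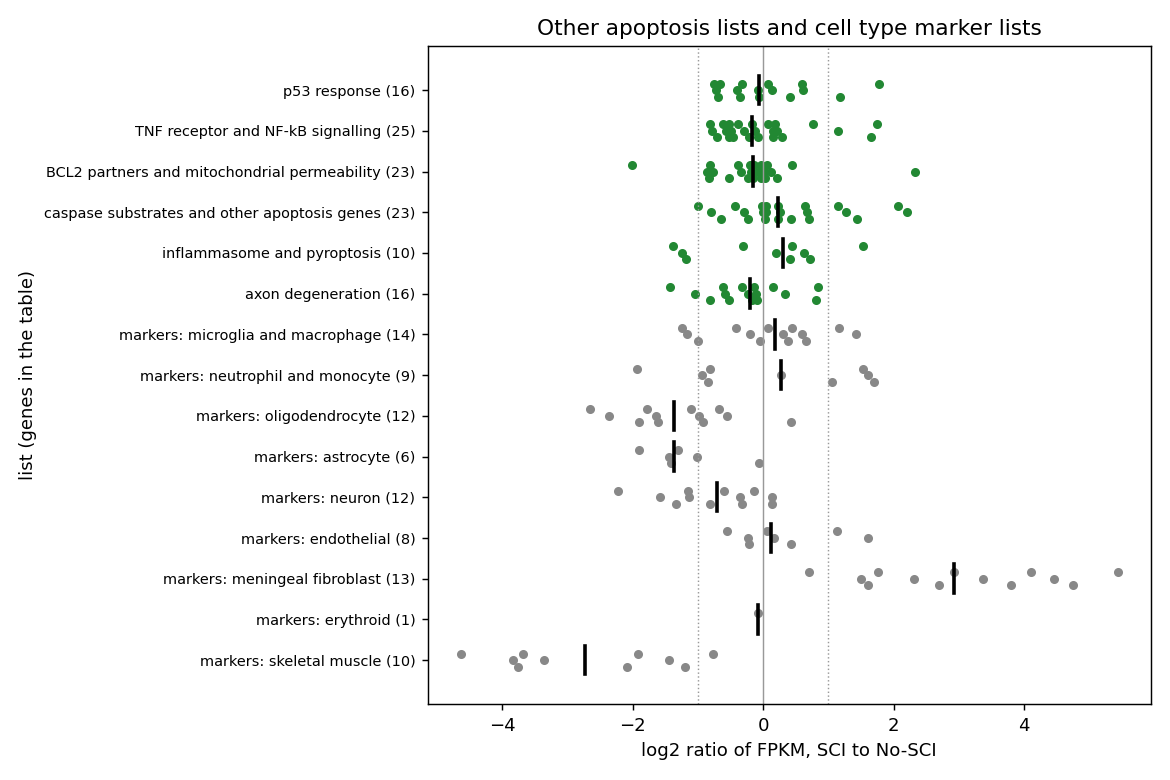
Log2 ratio of FPKM (SCI over No-SCI, horizontal axis) of each listed gene in 6 lists of related pathways (green) and 9 cell type marker lists (grey), with the median of each list as a bar and dotted lines at 2-fold. The meningeal fibroblast median (2.93) and the skeletal muscle median (−2.73) lie far from those of the pathway lists, which run from −0.20 to 0.30. All lists were chosen with earlier results of these data known.

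Markers of several cell types were called more often than the members were, also beside the 7.96% of entries called higher and 12.1% called lower. These lists were chosen with earlier results of these data known. Those of meningeal fibroblasts and skeletal muscle hold several of the most extreme ratios of all entries, so their shares only describe the lists. The summed FPKM of 13 meningeal fibroblast markers, all listed, went from 75.7 to 976, with 12 (92.3%) called higher, and that of 10 skeletal muscle markers, all listed, from 438 to 47.8, with 9 (90%) called lower. Of 12 listed oligodendrocyte markers 7 (58.3%) were called lower (sum 88714 and 48635 FPKM, mostly MOBP and BCAS1). So were 5 of 6 (83.3%) listed astrocyte markers (sum 14015 and 8912 FPKM, mostly GLUL and NDRG2). Of 12 listed neuronal markers 5 (41.7%) were called lower (sum 1813 and 1663 FPKM). Most of the neuronal sum was GAP43, with 1275 FPKM in No-SCI and 1406 FPKM in SCI, while 10 of the 12 had smaller values in SCI. Among the 9 listed markers of neutrophils and monocytes 4 (44.4%) were called higher and 1 (11.1%) lower (median log2 ratio 0.27), while at 1.5-fold 4 were higher and 4 lower. Their sum, 336 and 802 FPKM, was mostly LYZ2 with 201 and 611 FPKM. The 14 listed microglia and macrophage markers had 2 (14.3%) called higher and 3 (21.4%) lower (sum 1281 and 1469 FPKM), and the 8 endothelial markers 2 (25%) higher and none lower (sum 59.6 and 91.2 FPKM). Of 6 erythroid markers only HBB is listed, with 490 and 464 FPKM. The markers GFAP, AQP4, SLC1A3, ALDOC, S100B, MBP, SNAP25, NEFM, CTSS, MMP8, MMP9, CCR2, PECAM1, TEK and TIE1 have no row. The part of these cell types in the values of PMAIP1, CASP8, BCL2 and the other members was not tested.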

How the data were processed

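Libraries of total RNA, depleted of ribosomal RNA, were made from the supernatant of digested rat spinal cord. The authors downsampled the reads, used STAR 2.5.4b for alignment (rat assembly rn6) and, with Cuffdiff 1.3.0 and upper quartile normalization, deposited 1 FPKM value per group and gene. The table gives neither the reads behind each value nor the spread between animals, so no count, interval or test was computed. The table's other columns hold the authors' own comparison (fold change, log2 fold change, p-value, q-value) and were not used. Each value column was tied to its group by the group name on every row, which left 0 columns unassigned.

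Members were matched by symbol. Of the 43, all 43 match a RefSeq symbol of the GRCr8 rat assembly and 40 have a row, none of them more than once. For other symbols with several entries the one with the larger mean was used. Log2 ratios had no pseudocount. Called means at least 2-fold. The members, roles, lists and motifs were chosen with earlier results of these data known. All members were named, and of the pathway lists at most the 3 largest called genes in each direction. Of the marker lists only the most abundant genes and genes without a row were named. The 2-fold call was tested on simulated data with differences well past 2-fold and little noise. That test does not bear on members near the limit. Upstream windows of 250 bases came from RefSeq (GRCr8), another assembly than that of the values. Python 3.11.15 with numpy 2.4.6, pandas 2.3.3 and matplotlib 3.10.9 was used. The alternatives were a pseudocount of 1, 1 subtracted from each value, median centring, upper quartile scaling, a mean of at least 5 FPKM, a 1.5-fold minimum, and 11 members of disputed role left out. No library could be left out, since the table holds group values alone.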

Additional observations from a re-analysis of the deposited data

How the results depend on the processing

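No called member changed direction under any alternative, but none could. The scalings moved each log2 ratio by 0.12 or less, and no other setting can turn its sign. The count of members called higher, 2, was 2 or 3 under all scalings, constants and filters tried and 9 with a 1.5-fold minimum. The count called lower, 2, was 1 with a pseudocount of 1 (BCL2L2), 4 with 1 subtracted (BCL2, BCL2L2, BIK and FAS), 0 after median centring, 1 after upper quartile scaling (BCL2) and 7 with a 1.5-fold minimum, so it rests on values near the limit. The pro-death median log2 ratio, 0.29, was 0.28 with a pseudocount of 1, 0.30 with 1 subtracted, 0.41 after median centring, 0.39 after upper quartile scaling, 0.37 with a mean of at least 5 FPKM and 0.37 with undisputed roles. The pro-survival median, −0.62, was −0.61, −0.50, −0.51 and −0.55 under a pseudocount of 1, median centring, upper quartile scaling and undisputed roles. The difference of the medians, 0.91, was 0.90 with a pseudocount of 1, 0.92 with 1 subtracted, 0.99 with a mean of at least 5 FPKM and 0.92 with undisputed roles, and neither scaling can move it. No paired analysis was possible because the groups share no replicate number and the table holds no value per library. APAF1, BIK, CASP12 and FAS give no value with a mean of at least 5 FPKM. No alternative can replace the missing replicates.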
